A study of Mus musculus with 20 samples.

Results

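Neurexins bind neuroligins and leucine-rich repeat transmembrane proteins (LRRTMs) across the synaptic cleft. The genes followed here were Nrxn2, Nrxn3, Nlgn1, Nlgn2, Nlgn3, Lrrtm1, Lrrtm2, Lrrtm3 and Lrrtm4, found by symbol in the table of raw counts. They are 9 of its 32245 gene symbols, and all 9 were among the 15373 genes with enough counts to be tested.

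The study followed granule cells, the principal neurons of the dentate gyrus, through the first postnatal weeks. Hippocampi of mice of the genotype Rbp4-Cre:RiboTag were lysed at postnatal day (P) 5, 7, 10, 15, 21 and 28. In RiboTag mice, Cre recombinase switches on a ribosomal protein, RPL22, with an HA tag, so that tagged ribosomes and the mRNA bound to them can be pulled down with an antibody. The 20 libraries of ribosome-bound, poly-adenylated RNA comprised 5 at P5 and 3 at each later age.

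All groups carried both Cre and the tagged ribosome, and unselected RNA of the same hippocampi was not analysed here. In the Rbp4-Cre line, Cre follows Rbp4 regulatory sequence, so the tagged cells are those in which it was active, whether or not they are granule cells. The labels assign 3 P5 libraries and all P10 and P15 libraries to batch A, the other 2 P5 libraries and all P7 libraries to batch B, and all P21 and P28 libraries to batch C. Only P5 was in more than 1 batch, so age and batch cannot be told apart between P21 or P28 and any earlier age. The labels do not say whether replicates came from separate animals, and p-values then measure the spread between these libraries, which may be technical. Replicate numbers 1 and 3 of P5 occur in both of its batches, and it is likewise not said whether libraries of the same number share an animal or lysate.

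Total counts per library were 15.9 to 20.7 M at P5, 21.8 to 24.9 M at P7, 16.7 to 16.8 M at P10, 18.7 to 19.4 M at P15, 17.1 to 19.7 M at P21 and 17.5 to 19.1 M at P28. Granule cell markers were present throughout: Prox1, a transcription factor of the granule cell lineage, averaged 515 CPM (counts relative to library size, scaled by trimmed means) at P28 and 547 CPM at P5. The 5 such markers summed here were Prox1, C1ql2, Dsp, Slc17a7 and Calb1. Their summed level was 1840 to 2040 CPM at P5, 3140 to 3530 CPM at P10 and 3290 to 3390 CPM at P28. Slc17a7 alone averaged 620 CPM at P5, 1556 CPM at P10 and 1461 CPM at P28, and Calb1 603 CPM at P5 and 602 CPM at P28. At P28 against P5, 3 of the 5 were called higher and 0 lower, against 35.3% and 36.4% of all genes. Markers of other cells moved too. The sum of 5 oligodendrocyte markers was 80.2 to 98.4 CPM at P5, 105 to 138 CPM at P7, 395 to 711 CPM at P10, 957 to 1680 CPM at P15 and 771 to 923 CPM at P28, and that of 7 interneuron markers 150 to 175 CPM at P5, 256 to 300 CPM at P10 and 247 to 270 CPM at P28. Sums over 4 Cajal-Retzius cell markers were 105 to 143 CPM at P5, 31.5 to 38.8 CPM at P10 and 12.6 to 23.3 CPM at P28, and over 5 astrocyte markers 256 to 304 CPM at P5, 370 to 387 CPM at P7, 184 to 292 CPM at P10 and 165 to 206 CPM at P28. Sums over 4 oligodendrocyte precursor markers were 74.3 to 134 CPM at P5, 42.4 to 60.4 CPM at P10 and 24.5 to 31.6 CPM at P28, and over 4 endothelial markers 27.3 to 50.1 CPM at P5, 12.2 to 15.6 CPM at P10 and 4.56 to 6.61 CPM at P28. Sums over 5 CA pyramidal cell markers ranged from 275 to 459 CPM at P5, from 256 to 778 CPM at P10, with P10 replicate 2 the lowest, and from 280 to 449 CPM at P28. No marker in these lists was at 0 in every library of an age. The part of these cells in the results below was not tested, and a lower level in such bulk material can mean fewer cells of a type or less RNA per cell, which cannot be told apart.

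Neurexins sit mainly in the presynaptic membrane. Long alpha and short beta forms are made from separate promoters, and alternative splicing sets which ligands each form binds. Neuroligins and LRRTMs are postsynaptic ligands of neurexins and recruit scaffold proteins and receptors: neuroligin 1 works mainly at excitatory synapses, neuroligin 2 mainly at inhibitory synapses and neuroligin 3 at both, while LRRTMs work at excitatory synapses. LRRTM4 is known for its place at excitatory synapses on granule cell dendrites, where it also binds heparan sulfate chains. Gene counts, as used here, separate neither alpha from beta transcripts nor splice forms.

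Levels of all 9 genes differed among the 6 ages (edgeR quasi-likelihood test, Benjamini-Hochberg adjusted p between 1.08e-09 for Lrrtm4 and 0.0398 for Lrrtm3), against 79.7% of all genes tested. The differences were small. From the lowest to the highest fitted age, the level changed by a median of 1.36-fold over the 9 genes and 1.74-fold over all genes tested. A span of at least 2-fold was seen in 0 of the 9 and in 40.2% of all genes; Lrrtm4 came nearest with 1.99-fold. Fitted levels of both neurexins, Nlgn1 and Lrrtm2 were highest at P5, those of Nlgn2, Nlgn3 and Lrrtm1 at P10, and Lrrtm3 and Lrrtm4 at P28. For Lrrtm2 this rests on the batch A libraries of P5. Its mean was 46.2 CPM over all P5 libraries, 46.4 CPM at P10 and 46.8 CPM at P21. The result for Lrrtm3 was the weakest: it was not past the threshold in 10 of 28 alternatives, 9 of which left out 1 library. Lrrtm2 lost its call in this test without P28 replicate 3 (adjusted p = 0.061) and Nlgn3 without P10 replicate 2 (adjusted p = 0.0698).

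**Figure D1:**
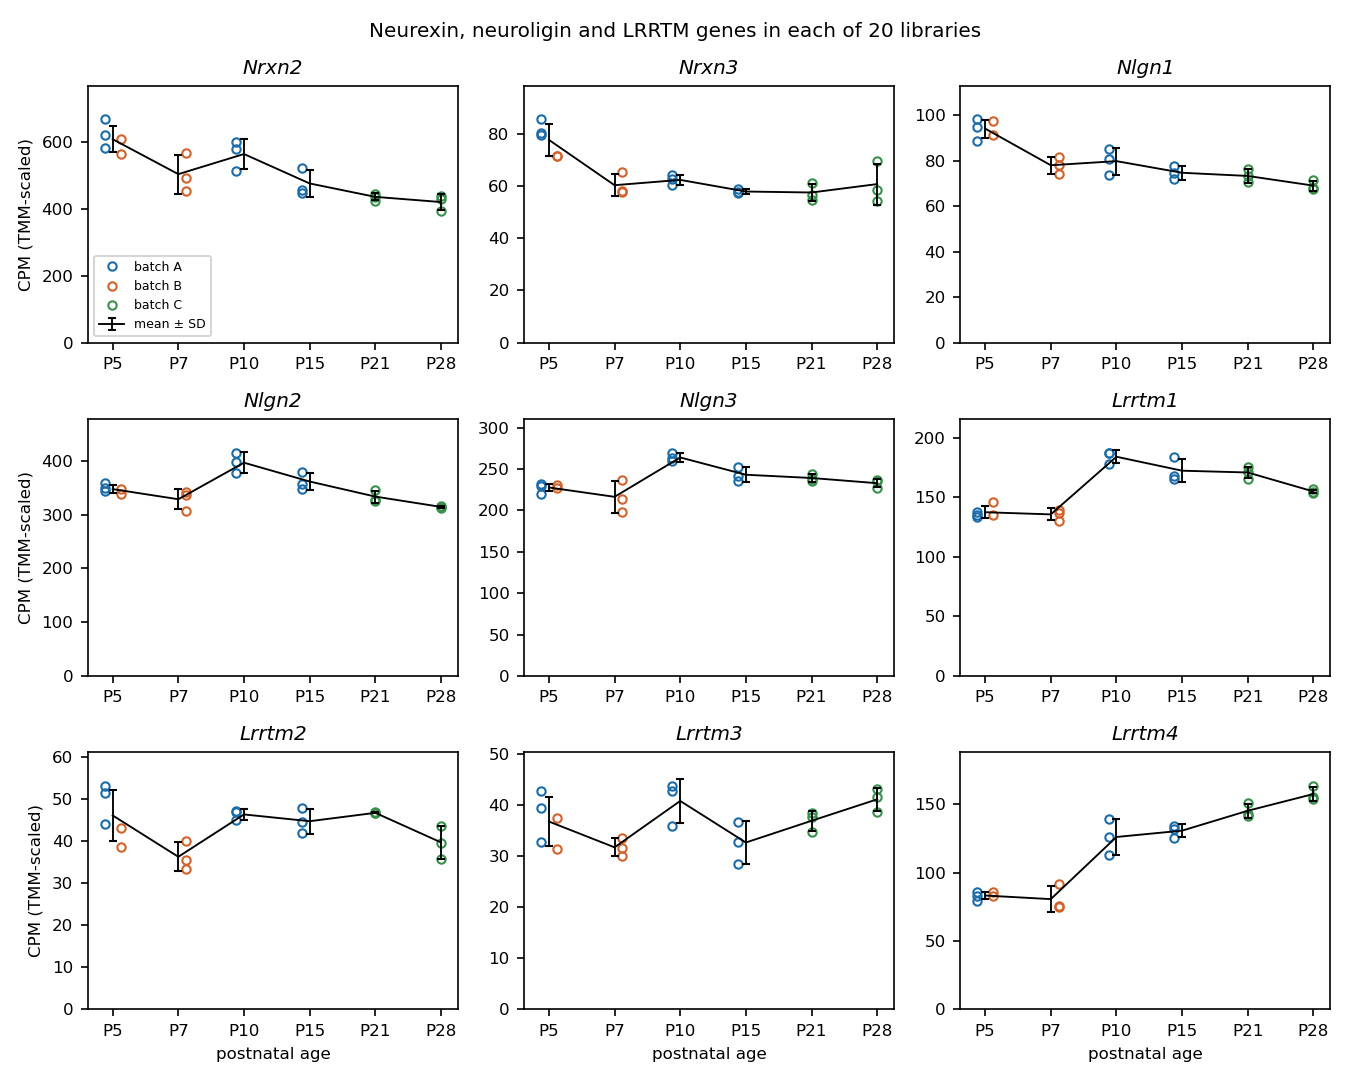
TMM-scaled CPM (vertical axis, from 0) of each gene in every library at 6 postnatal ages (horizontal axis), with open circles coloured by batch and the mean ± SD of an age in black (n = 5 at P5, n = 3 later). Nrxn2, Nrxn3 and Nlgn1 are highest at P5, Nlgn2, Nlgn3 and Lrrtm1 at P10, and Lrrtm4 averages 157.5 CPM at P28 and 83.2 CPM at P5.

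Both neurexin genes fell at P15 and P28 against P5. Nrxn2 (mm10, GENCODE vM21: chr19:6418731-6544169, plus strand) had 581, 619.6 and 668 CPM in the batch A and 608 and 565 CPM in the batch B libraries of P5. It had 491, 568 and 453 CPM at P7, 599.7, 512 and 581 CPM at P10, 523, 449 and 457 CPM at P15, 437, 446 and 425 CPM at P21, and 393, 439 and 429.7 CPM at P28. Every library from P15 on lay below every P5 library, whereas those of P7 and P10 overlapped P5. The fitted log2 change was -0.39 at P15 against P5 (SE 0.0785, edgeR adjusted p = 0.000156) and -0.57 at P28 against P5 (SE 0.0787, adjusted p = 8.25e-07). At P7 it was -0.22 (SE 0.0871, adjusted p = 0.109) and at P10 -0.14 (adjusted p = 0.119), neither past the threshold. The change at P7 passed it with total counts as the scaling (-0.33, adjusted p = 0.00379), without the batch term (-0.27, adjusted p = 0.0109) and without P7 replicate 2 (-0.31, adjusted p = 0.0226), and that at P10 with total counts.

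Nrxn3 (chr12:88722876-90334935, plus strand), the longest of the 9 genes, was lower already at P7. The P5 libraries had 80.2, 85.5 and 79.7 CPM in batch A and 71.5 and 71.7 CPM in batch B; the difference between those batches, log2 -0.19 (batch B minus A, SE 0.0794, adjusted p = 0.131), was not past the threshold. Later libraries had 58.0, 65.3 and 57.7 CPM at P7, 60.3, 62.6 and 64.3 CPM at P10, 57.3, 58.9 and 57.6 CPM at P15, 54.8, 56.7 and 61.1 CPM at P21, and 54.3, 69.5 and 58.4 CPM at P28. None of the later libraries reached any P5 library. The change was log2 -0.25 at P7 against P5 (SE 0.079, adjusted p = 0.0444), -0.39 at P10 (SE 0.0718, adjusted p = 5e-05), -0.50 at P15 (SE 0.0717, adjusted p = 1.6e-06) and -0.43 at P28 (SE 0.0716, adjusted p = 1e-05). These comparisons share the P5 libraries. With the batch term, the P7 value is set by the 2 batch B libraries of P5, and it was not past the threshold in 11 of 28 alternatives, with adjusted p up to 0.206.

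Nlgn1 (chr3:25426215-26332460, minus strand), the excitatory neuroligin, moved in the same direction as the neurexins. It had 88.8, 94.9 and 98.1 CPM in batch A and 97.3 and 91.5 CPM in batch B at P5, 74.1, 78.1 and 81.7 CPM at P7, 73.5, 80.5 and 85.3 CPM at P10, 74.4, 77.8 and 71.8 CPM at P15, 70.5, 73.1 and 76.2 CPM at P21, and 67.8, 71.5 and 67.8 CPM at P28. All P5 libraries stood above all later ones. Its log2 change was -0.27 at P7 against P5 (SE 0.0668, adjusted p = 0.00845), -0.24 at P10 (SE 0.0609, adjusted p = 0.00182), -0.33 at P15 (SE 0.0608, adjusted p = 4.48e-05) and -0.44 at P28 (SE 0.0611, adjusted p = 5.87e-07). At P7, the call did not hold without P5 replicate 1 of batch B (-0.23, adjusted p = 0.149) or without P7 replicate 1 (-0.23, adjusted p = 0.0541). Nrxn3 and Nlgn1 were the 2 of 9 genes called at P7 against P5, both lower, against 11% of all genes tested (6.15% higher, 4.89% lower). In batch B alone, these were also the 2 of 9 genes whose P7 and P5 libraries did not overlap, against 38.1% of all genes. At P7 against P5, 2 of 5 astrocyte, 2 of 5 granule cell and 1 of 7 interneuron markers were called higher and no marker of the lists above lower.

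Nlgn2 and Nlgn3 had their highest fitted level at P10. Their lower level at P15 against P10 was not past the threshold. The log2 change was -0.13 for Nlgn2 (edgeR adjusted p = 0.153) and -0.12 for Nlgn3 (adjusted p = 0.22). Nlgn2 (chr11:69823122-69837784, minus strand), the inhibitory synapse neuroligin, had 345, 349, 359, 348 and 338 CPM at P5, 337, 342 and 307 CPM at P7, 415, 377 and 398 CPM at P10, 380.0, 358 and 347 CPM at P15, 326, 347 and 328 CPM at P21, and 314, 313 and 316 CPM at P28. The 3 P10 libraries exceeded every P5 and P7 library, and the 3 P28 libraries lay below every P5 library. Its log2 change was 0.24 at P10 against P7 (SE 0.0798, adjusted p = 0.0186), 0.18 at P10 against P5 (SE 0.0533, adjusted p = 0.00579) and -0.16 at P28 against P5 (SE 0.0534, adjusted p = 0.0111). The call against P7 was lost without P5 replicate 1 of batch B (0.22, adjusted p = 0.0769), P7 replicate 3 (0.19, adjusted p = 0.0512) or P10 replicate 1 (0.21, adjusted p = 0.0525).

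Nlgn3 (chrX:101299168-101325963, plus strand) had 220.1, 229.5 and 232 CPM in batch A and 227 and 231 CPM in batch B at P5, and 237, 214 and 199 CPM at P7. It then had 259.5, 269.9 and 263 CPM at P10, 253, 241 and 235 CPM at P15, 244, 238 and 236 CPM at P21, and 235, 236 and 227 CPM at P28. As for Nlgn2, each P10 library stood above each P5 and P7 library, while P28 overlapped P5. The gene rose by log2 0.30 at P10 against P7 (SE 0.0823, adjusted p = 0.0053) and 0.22 at P10 against P5 (SE 0.0551, adjusted p = 0.00146). At P28 against P5 the log2 change was 0.04 (95% interval -0.08 to 0.16, adjusted p = 0.557).

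The gains of Nlgn2 and Nlgn3 at P10 against P5 depend on the scaling. With libraries scaled to total counts, under which the median log2 change of all genes was -0.15, against -0.02 with trimmed means, the change was 0.05 for Nlgn2 (adjusted p = 0.393) and 0.09 for Nlgn3 (adjusted p = 0.121). Both genes still rose at P10 against P7 under that scaling. At P10 against P5 it also placed Nrxn2 (-0.27, adjusted p = 0.00152) and Lrrtm2 (-0.23, adjusted p = 0.0137) among the genes called lower, so that 2 of the 9 were called higher and 4 lower.

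Lrrtm4 (chr6:80018877-80810143, plus strand) showed the largest change of the 9 genes. Its level was 85.8, 82.5 and 79.5 CPM in batch A and 85.5 and 82.7 CPM in batch B at P5, and 91.6, 74.8 and 75.3 CPM at P7. Thereafter it was 113, 139 and 126 CPM at P10, 134, 132 and 126 CPM at P15, 151, 143 and 141 CPM at P21, and 155, 163 and 154 CPM at P28. Libraries of P5 and P7 overlapped each other, and all of them lay below all later ones. Lrrtm4 rose by log2 0.67 at P10 against P7 (SE 0.109, adjusted p = 2.98e-05), by 0.61 at P10 against P5 (SE 0.0729, adjusted p = 1.13e-07), by 0.66 at P15 against P5 (SE 0.0727, adjusted p = 2.14e-08) and by 0.93 at P28 against P5 (SE 0.0727, adjusted p = 3.12e-11, 95% interval 0.77 to 1.09). No step after P10 passed the threshold alone, with a change of 0.15 at P21 against P15 (adjusted p = 0.12) and 0.12 at P28 against P21 (adjusted p = 0.515).

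Lrrtm1 (chr6:77242689-77257791, plus strand) rose in the same interval. It had 134, 135 and 138 CPM in batch A and 146 and 135 CPM in batch B at P5, 139.8, 137 and 130.2 CPM at P7, 188, 178 and 187 CPM at P10, 184, 168 and 166 CPM at P15, 176, 171 and 166 CPM at P21, and 157, 154 and 154 CPM at P28. Every library from P10 on exceeded every P5 and P7 library, and the P28 libraries were the lowest of these later ones. The log2 change was 0.49 at P10 against P7 (SE 0.0775, adjusted p = 2.33e-05), 0.44 at P10 against P5 (SE 0.052, adjusted p = 8.89e-08), 0.35 at P15 against P5 (SE 0.0519, adjusted p = 2.91e-06) and 0.19 at P28 against P5 (SE 0.052, adjusted p = 0.002). With total counts as the scaling, the last of these was 0.07 (adjusted p = 0.194).

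Nlgn2, Nlgn3, Lrrtm1 and Lrrtm4 were the 4 of 9 genes called at P10 against P7, all higher, where 42.8% of all genes were called (22.5% higher, 20.3% lower). P7 and P10 were in different batches, and this comparison runs through the P5 libraries of both. At P10 against P5 the same 4 genes were called higher and Nrxn3 and Nlgn1 lower, where 61.4% of all genes were called (30.8% higher, 30.6% lower). Of the marker lists at P10 against P7, 3 of 5 granule cell, 3 of 5 oligodendrocyte and 3 of 7 interneuron markers were called higher. Called lower were 1 interneuron marker, 3 of 5 astrocyte markers and all 4 markers each of oligodendrocyte precursors, endothelial cells and Cajal-Retzius cells.

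**Figure D2:**
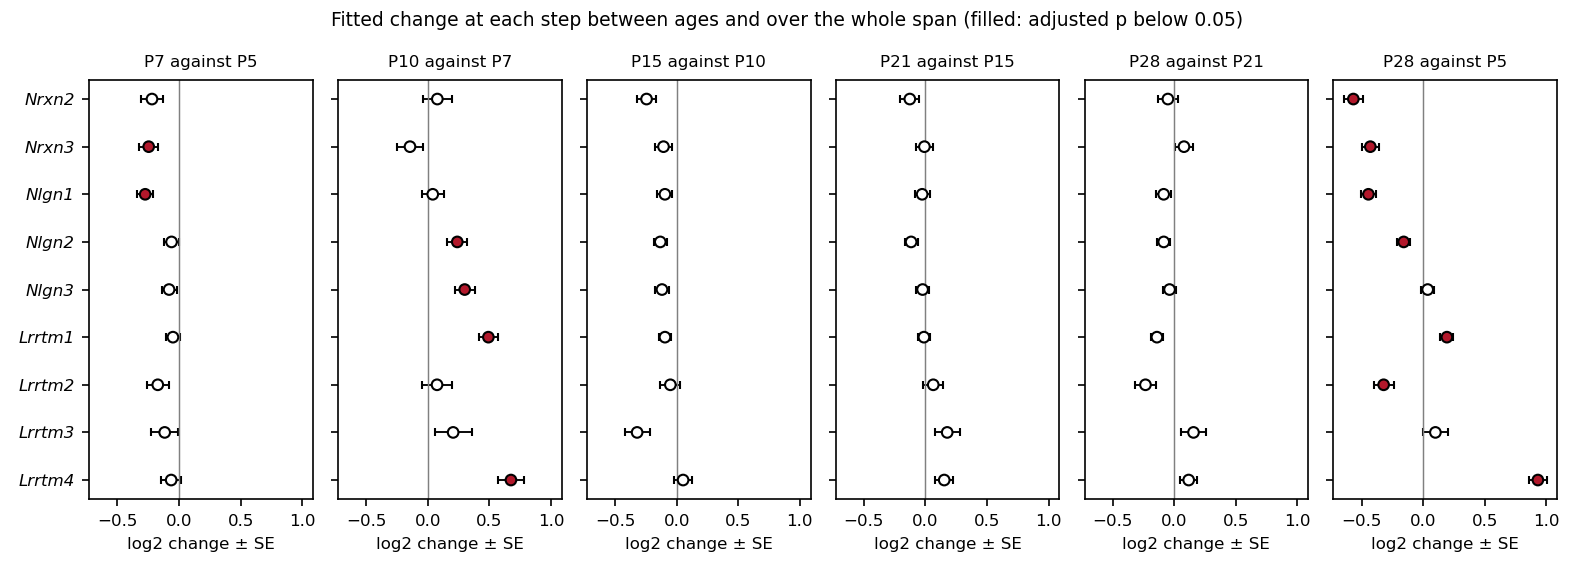
Fitted log2 change ± SE (horizontal axis) of each gene (vertical axis) at 5 steps between successive ages and at P28 against P5, with positive values higher at the later age and filled circles for an adjusted p below 0.05. Calls between successive ages are at P7 against P5 and at P10 against P7, and 7 genes are called over the whole span.

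Start regions of genes that moved in different ways are shown because transcription starts beside them, and whether granule cells use these starts was not measured. The RefSeq promoter table for GRCm38.p6 held 10 windows for 6 of the 9 genes (Nrxn3, Nlgn1, Nlgn2, Lrrtm1, Lrrtm3 and Lrrtm4). Each sequence below gives the 150 bases before an annotated start, written 5′ to 3′ on the gene's strand, with GC boxes (GGGCGG) in capitals. Lrrtm4, Lrrtm1 and Nlgn2 rose at P10 against P5, and Nlgn1 fell. Fitted levels were highest at P28 for Lrrtm4, at P10 for Lrrtm1 and Nlgn2, and at P5 for Nlgn1. Lrrtm4 and Nlgn1 have a further window that is not shown.
Lrrtm4 (GRCm38.p6, chr6:80018727-80018876, plus strand): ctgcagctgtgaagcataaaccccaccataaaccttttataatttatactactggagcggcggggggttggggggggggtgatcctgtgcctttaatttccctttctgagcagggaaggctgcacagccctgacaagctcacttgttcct
Lrrtm1 (GRCm38.p6, chr6:77242327-77242476, plus strand): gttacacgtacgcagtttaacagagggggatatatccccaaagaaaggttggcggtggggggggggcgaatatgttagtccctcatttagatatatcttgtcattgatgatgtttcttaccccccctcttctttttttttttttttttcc
Nlgn2 (GRCm38.p6, chr11:69837785-69837934, minus strand): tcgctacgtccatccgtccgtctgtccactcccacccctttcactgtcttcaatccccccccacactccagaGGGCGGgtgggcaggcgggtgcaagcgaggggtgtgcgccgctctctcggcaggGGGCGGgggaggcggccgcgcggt
Nlgn1 (GRCm38.p6, chr3:26331910-26332059, minus strand): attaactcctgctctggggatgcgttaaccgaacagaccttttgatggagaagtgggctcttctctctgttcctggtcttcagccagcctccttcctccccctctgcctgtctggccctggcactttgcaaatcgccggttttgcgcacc
Lower-case letters mark all bases outside a GC box. In the 250 bases before each start, on both strands, GGGCGG was found in 1 of the 10 windows, that of Nlgn2, and in 32.7% of 32851 promoters. The sequence CAGATG, an E-box of the type bound by NEUROD factors, was found in none of the 10 windows and in 14.4% of all promoters. TGACG, the half-site of the cAMP response element, was likewise found in none and in 17.8% of all. The motifs do not overlap one another in these windows, and an absent match says only that these letters are not in this stretch. GC content was between 42% for Lrrtm1 and 67.6% for Nlgn2, against a median of 52.4% for all promoters.

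Lrrtm2 and Lrrtm3 drew the fewest counts of the 9 genes. Lrrtm2 (chr18:35209003-35215024, minus strand) had 44.2, 53.2 and 51.6 CPM in batch A and 43.1 and 38.7 CPM in batch B at P5, and 39.7, 43.7 and 35.9 CPM at P28; at P21 its 3 libraries had between 46.7 and 46.9 CPM. P28 overlapped the batch B but not the batch A libraries of P5. Lrrtm2 was not called against P5 at P7, P10 or P15 (edgeR adjusted p = 0.244, 0.305 and 0.112). Its log2 change was -0.32 at P28 against P5 (SE 0.0819, adjusted p = 0.00125), and between the P5 batches it was -0.28 (batch B minus A, SE 0.0912, adjusted p = 0.0517), the largest batch difference of the 9 genes. None of the 9 was called between the P5 batches, where 10.1% of all genes were (6.65% higher and 3.42% lower in batch B).

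Lrrtm3 (chr10:63928472-64090277, minus strand) followed no single direction. Its libraries lay between 31.3 and 42.8 CPM at P5, 30.0 and 33.5 CPM at P7, 35.9 and 43.8 CPM at P10, 28.5 and 36.8 CPM at P15, 34.7 and 38.4 CPM at P21, and 38.7 and 43.1 CPM at P28. Neighbouring ages overlapped, except P10 with P7 and P28 with P21, where the later libraries lay higher. The log2 change at P15 against P5 was -0.23 (SE 0.102, adjusted p = 0.0503), just outside the threshold, and became past it in 16 of 29 alternatives. At P28 against P5 the change was 0.10 (95% interval -0.12 to 0.32, adjusted p = 0.382).

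At P15 against P5, a comparison that rests in effect on batch A libraries, 5 of 9 genes were called (2 higher, 3 lower), where 63.4% of all genes were (31.6% higher, 31.8% lower). The batch A libraries of both ages did not overlap for 6 of 9 genes, against 68.2% of all genes; these were the 5 genes called and Nlgn3. Over the whole span, P28 against P5, 7 of 9 were called (2 higher, 5 lower), against 71.6% of all genes (35.3% higher, 36.4% lower), and the libraries were apart for 6 of 9, against 67% of all. The median log2 change of the 9 genes at P28 against P5 was -0.16 and that of all genes tested -0.01. The median absolute log2 change was 0.32 for the 9 genes and 0.57 for all genes tested.

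Between neighbouring later ages no gene of the 9 was called by edgeR, DESeq2 or limma-voom. At P15 against P10, where 4.35% of all genes were called (1.83% higher, 2.51% lower), 4 of the 9 had an unadjusted p under 0.05 (Nrxn2, Nlgn2, Nlgn3 and Lrrtm3), as did 20.4% of all genes. Of these, Lrrtm3 changed by log2 -0.32 (SE 0.102, adjusted p = 0.0709) and Nrxn2 by -0.24 (adjusted p = 0.074); both were called lower when P10 replicate 2 or P15 replicate 1 was left out. At P21 against P15, where 28.8% of all genes were called (14% higher, 14.8% lower) and age and batch cannot be told apart, 2 of the 9 had such a p (Nlgn2 and Lrrtm4), as did 39% of all genes. At P28 against P21, within batch C, 0.254% of all genes were called (0.065% higher, 0.189% lower). An unadjusted p under 0.05 was found there for 2 of the 9 genes (Lrrtm1 and Lrrtm2) and for 12.7% of all genes. The P28 and P21 libraries did not overlap for 5 of 9 genes, Lrrtm3 and Lrrtm4 being higher and Nlgn2, Lrrtm1 and Lrrtm2 lower at P28, against 22% of all genes.

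Compared per kilobase of annotated exon, Nlgn2 had the highest level at P28, with 54.4 ± 0.303 CPM per kb (SD, n = 3). Lrrtm1 followed with 51.1 ± 0.523, then Nrxn2 with 30.4 ± 1.73, Lrrtm4 with 25.6 ± 0.846, Nlgn3 with 25.1 ± 0.544, Lrrtm3 with 9.68 ± 0.533, Lrrtm2 with 6.60 ± 0.647, Nlgn1 with 5.14 ± 0.163 and Nrxn3 with 4.82 ± 0.625 CPM per kb. The libraries of Lrrtm4 and Nlgn3 overlapped, as did those of Nlgn1 and Nrxn3. At P5 the order differed: Lrrtm4 had 13.5 ± 0.416 CPM per kb (SD, n = 5) and stood below Nlgn3 with 24.6 ± 0.502, and Nrxn2 had 44.0 ± 2.85, overlapping Lrrtm1 with 45.4 ± 1.64. The order rests in part on the length used. The annotated exons of Nrxn2 add up to 13812 bases and its longest transcript to 6667. With the latter Nrxn2 had 63.1 CPM per kb at P28 and 91.3 at P5, the highest level at both ages. Per kb of longest transcript at P28, Nrxn3 had 7.67 CPM, above Lrrtm2 with 7.005 and Nlgn1 with 5.845. Lrrtm4 then had 35.5 and Nlgn3 27.3.

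Each gene's share of its family, counting only the genes followed here, was also taken per kb. Nlgn2 made up 65.5% of the summed level of Nlgn1, Nlgn2 and Nlgn3 per kb at P5. Its highest mean share was 66.5% at P10, and it had 64.2% at P28, while Nlgn3 made up 29.7% at P28 and 26.8% at P5. The share of Lrrtm4 among the 4 LRRTM genes was 18.02% ± 0.911 at P5 (SD, n = 5) and 18.3% at P7. It was 20.8% at P10 and 22.8% at P15, and then 24.5% at P21 and 27.6% ± 0.747 at P28 (n = 3). Lrrtm1 held 54.9% at P28 and 60.3% at P5. Shares of Lrrtm4 and Lrrtm1 at P28 come from batch C. The summed LRRTM level was 93.0 CPM per kb at P28 and 75.2 at P5, and the summed neuroligin level 84.6 at P28 and 91.7 at P5. No test was made on the shares.

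**Figure D3:**
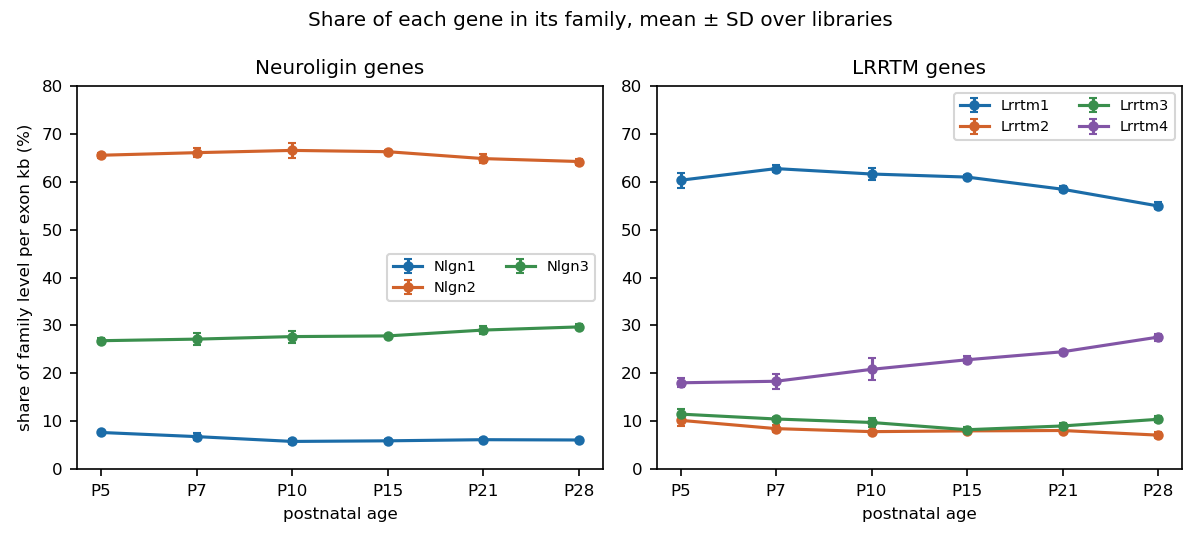
Share (%) of each gene in the summed CPM per exon kb of its family followed here (vertical axis) at 6 postnatal ages (horizontal axis). Neuroligins are on the left and LRRTMs on the right, as mean ± SD over libraries (n = 5 at P5, n = 3 later). Lrrtm4 makes up 27.6% of the LRRTM level at P28 and 18.02% at P5. Nlgn2 stays between 64.2% and 66.5% of Nlgn1, Nlgn2 and Nlgn3 together.

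Lrrtm1, Lrrtm2 and Lrrtm3 lie whole inside the alpha-catenin genes Ctnna2, Ctnna1 and Ctnna3, on the opposite strand. Ctnna2, which links cadherins to actin in neurons, averaged 129 CPM at P15 and 239 CPM at P5 (log2 change -0.79, SE 0.057, adjusted p = 1.17e-11) and 108 CPM at P28 (-1.04, SE 0.0574, adjusted p = 3.81e-14), while Lrrtm1 inside it rose in both comparisons. Ctnna1 had 13.4 CPM at P15 and 19.8 CPM at P5 (-0.60, SE 0.106, adjusted p = 2.66e-05) and did not pass the test at P28 against P5 (-0.11, adjusted p = 0.339), the comparison in which Lrrtm2 was called lower. Ctnna3 stayed below 1 CPM at every age. Exons overlap only between Lrrtm2 and Ctnna1, over 1.58% of the exon length of Lrrtm2, and whether the reads were counted by strand is not given in the sources used here. Among other overlaps, Gm4409 lies antisense to 25.1% of the exon length of Lrrtm4 and had 0 to 2 counts per library, and A830092H15Rik lies antisense to 9.16% of that of Nlgn1 and had 7 to 36 counts, against 1366 to 3119 counts for Lrrtm4 and 1169 to 2037 for Nlgn1. Nlgn3 shares 41.2% of its exon length with Gm21986 on the same strand, a symbol that is not in the table of raw counts.

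Genes around the complex were followed in lists of known partners, compared at P15 against P5. In that comparison 63.4% of all genes tested were called (31.6% higher, 31.8% lower), which is the background for the counts of every list below. Of the 17 tested extracellular ligands of neurexins, 5 were higher and 7 lower, with a median log2 change of -0.08 against -0.02 for all genes. C1ql2, a secreted C1q-like protein of granule cell axons, averaged 332 CPM at P15 and 74.2 CPM at P5 (log2 2.36, SE 0.101, adjusted p = 7.33e-14). Dag1, dystroglycan, had 116 CPM at P15 and 163 CPM at P5 (-0.53, adjusted p = 5.03e-09), and Nxph4, a neurexophilin, 0.730 CPM at P15 and 2.75 CPM at P5 (-2.01, adjusted p = 2.16e-05). Tafa2, a small secreted protein, had 188 CPM at P15 and 136 CPM at P5 (0.42, adjusted p = 3.27e-07). C1ql2 also stands in the list of 5 granule cell markers given above.

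Of 9 cytoplasmic partners that bind neurexin tails or their adaptors, 3 were higher and 4 lower (median log2 change -0.22). Among all genes tested, 31.6% were higher and 31.8% lower. Sdcbp, syntenin, had 325 CPM at P15 and 131 CPM at P5 (1.34, SE 0.0682, adjusted p = 1.93e-14), and Lin7b 55.9 CPM at P15 and 33.1 CPM at P5 (0.76, adjusted p = 1e-09). Cask, a scaffold kinase, had 75.4 CPM at P15 and 126 CPM at P5 (-0.71, adjusted p = 3.19e-11), and Apba2, a Mint adaptor, 238 CPM at P15 and 389 CPM at P5 (-0.74, adjusted p = 4.15e-12).

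Of 13 postsynaptic and cleft partners of neuroligins, 8 rose and 3 fell, against 31.6% and 31.8% of all genes. The median log2 change of the list was 0.51. Dlg4, PSD-95, had 1484 CPM at P15 and 836 CPM at P5 (0.91, SE 0.0544, adjusted p = 3.88e-13). Dlg3, SAP102, had 593 CPM at P15 and 296 CPM at P5 (1.23, adjusted p = 2.71e-13). Sparcl1, hevin, a secreted protein also made by astrocytes, had 854 CPM at P15 and 382 CPM at P5 (1.53, adjusted p = 1.73e-12). The genes that fell were Mdga1 and Mdga2, which block neuroligin binding to neurexins, and Thbs1, a thrombospondin. Mdga1 had 40.0 CPM at P15 and 73.4 CPM at P5 (-0.88, SE 0.0949, adjusted p = 3.72e-08) and Mdga2 29.7 CPM at P15 and 40.7 CPM at P5 (-0.52, SE 0.0802, adjusted p = 4.39e-06).

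Heparan sulfate proteoglycans and the enzymes that build their chains are a list that includes LRRTM4 ligands. It had 5 of 20 genes higher and 10 lower (median -0.17), against 31.6% and 31.8% of all genes. Gpc4, glypican 4, had 101 CPM at P15 and 41.4 CPM at P5 (1.55, SE 0.0937, adjusted p = 3.29e-12). Sdc3 had 299 CPM at P15 and 757 CPM at P5 (-1.36, adjusted p = 5.68e-09). Gpc3 had 5.34 CPM at P15 and 16.8 CPM at P5 (-1.58, adjusted p = 3.01e-11), and Sdc1 0.383 CPM at P15 and 5.46 CPM at P5 (-3.91, adjusted p = 9.82e-11). Gpc4 averaged 149.8 CPM at P28 (log2 change 2.13 against P5, SE 0.0941, adjusted p = 8.47e-15). At P28 against P5, 6 of the 20 genes were higher and 12 lower (median -0.59), against 35.3% and 36.4% of all genes.

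Among 6 proteases and protease subunits linked to ectodomain shedding, Bace1 rose (0.24, adjusted p = 0.00251), and Adam10 (-0.47, adjusted p = 2.94e-07), Adam17 (-0.91, adjusted p = 1.02e-05) and Mmp9 (-0.93, adjusted p = 0.00527) fell. Of 11 splicing regulators, 4 were higher and 6 lower, against 31.6% and 31.8% of all genes. Rbfox1 had 505 CPM at P15 and 175 CPM at P5 (1.70, SE 0.0788, adjusted p = 4.41e-15), Rbfox3 436 CPM at P15 and 248 CPM at P5 (0.86, adjusted p = 1.03e-12), Rbfox2 275 CPM at P15 and 403 CPM at P5 (-0.49, adjusted p = 1.13e-08) and Ptbp1 14.8 CPM at P15 and 26.4 CPM at P5 (-0.96, adjusted p = 5.22e-07).

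**Figure D4:**
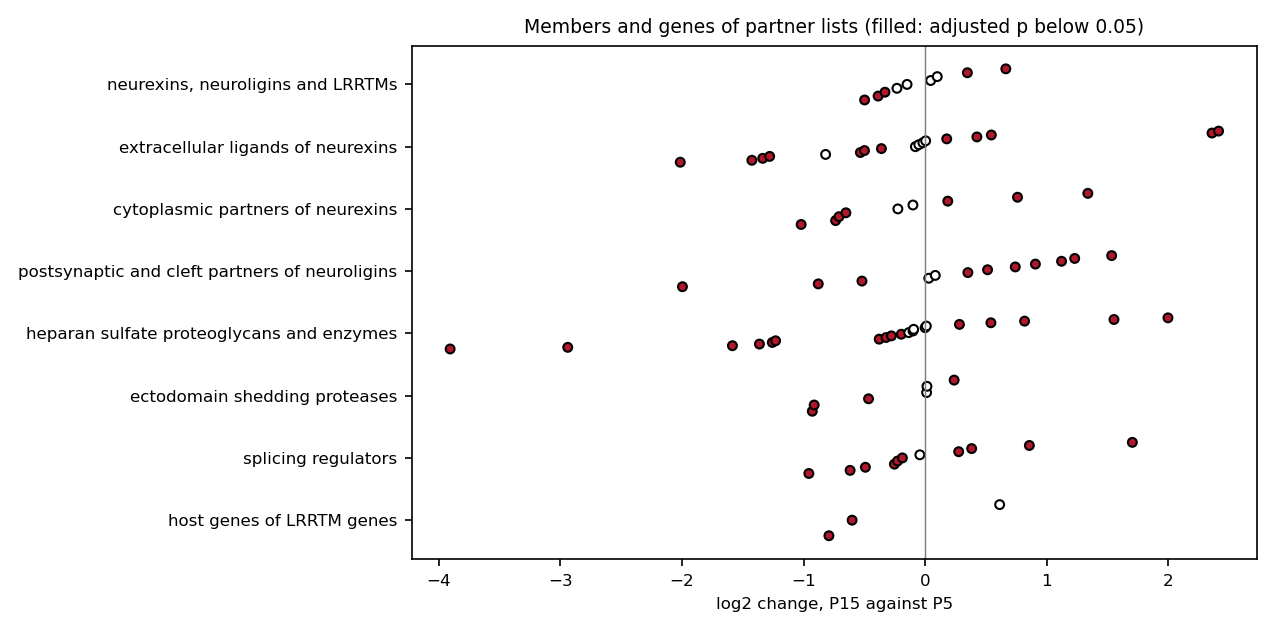
Log2 change at P15 against P5 (horizontal axis, positive where P15 is higher) of the 9 genes and of genes reported from each partner list (vertical axis), 1 circle for each gene, filled where the adjusted p is below 0.05; not every gene counted in a list is drawn. The 9 genes lie between -0.50 and 0.66, while the partner lists reach from -3.91 for Sdc1 to beyond 2 on the right.

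Over the 20 libraries, log2 CPM of Nlgn3 and Lrrtm1 correlated with Pearson r = 0.836, of Nrxn3 and Nlgn1 with 0.829, of Nrxn2 and Nlgn1 with 0.81, and of Nlgn1 and Lrrtm4 with -0.742. These values describe points that share age, batch and depth. The genes most like each of the 9 among 10543 searched were Gsk3b (0.959) and Basp1 (0.958) for Nrxn2, Stx7 (0.924) and Negr1 (0.914) for Nrxn3, Smarce1 (0.93) and Gng2 (0.928) for Nlgn1, Dctn3 (0.918) and Gk (0.907) for Nlgn2, and Klhl9 (0.917) and Cycs (0.911) for Nlgn3. For Lrrtm1 they were Gabbr1 (0.967) and Cox7b (0.964), for Lrrtm2 Impad1 (0.849) and Fgd4 (0.815), for Lrrtm3 B3galt2 (0.859) and Rex1bd (0.817), and for Lrrtm4 Kctd4 (0.986) and Sri (0.983). Kctd4 averaged 86.2 CPM at P5, 92.2 CPM at P7, 154.0 CPM at P10, 151 CPM at P15, 184 CPM at P21 and 198 CPM at P28.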

How the data were processed

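Raw, unnormalized counts for 20 libraries were deposited in a single table. STAR 2.7.5b, featureCounts, SAMtools 1.10 and the mm10 build are named in the submitters' processing notes, and per the labels' protocols the libraries were stranded and poly-A selected. How the reads were annotated, whether strand was used in counting and how reads with several matches were treated is not stated in those sources.

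The test was that of edgeR 4.0.16 under R 4.3.3 (TMM factors, filterByExpr by age, robust quasi-likelihood fits, Benjamini-Hochberg adjustment over the 15373 genes tested, threshold 0.05). The model held a mean for each age and a term for batch B, which P5 alone makes estimable (residual degrees of freedom, 13). P7 against P5 is thereby set by the batch B libraries of P5, and later ages against P5 by its batch A libraries; printed P5 means cover all 5. Intervals are 95%. Libraries of the same age always differed by more than sampling noise (chi-square over its degrees of freedom, 3.85 to 43.5). Levels below 3 counts, 0.12 to 0.189 CPM, are not distinguishable from 0 (counting error only).

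Coordinates and exon lengths came from GENCODE vM21, which held 97.5% of the symbols and all 9 genes. From each partner list the text names the genes called at P15 against P5 where these are 6 or fewer, and otherwise the 4 with the smallest p, with Mdga1, Mdga2 and Thbs1 added after their values were seen; some genes the rule names are not reported here. Likeness is Pearson r of log2(CPM + 0.5) among genes averaging at least 5 CPM. The genes and lists were chosen with earlier results of these data known. Alternatives were DESeq2 1.42.0, limma-voom (limma 3.58.1), DESeq2 size factors, total counts, other filters, no batch term, P5 without its batch B libraries, a replicate block, the longest transcript as length, and each library left out in turn. The scripts were tested on simulated data.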

Additional observations from a re-analysis of the deposited data

How the results depend on the processing

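Of 2070 values of the 72 log2 changes of the 9 genes under the alternatives, 2014 kept their direction where called and their side of the threshold, 19 lost a call, 37 gained one and 0 turned round while called. At P7 against P5, 1698 genes and 2 of the 9 were called; total counts gave 3035 and 7 (all 7 lower), leaving out the batch term 3586 and 4, and no filter 1 of the 9. Without 1 library these counts were 518 to 1848 genes and 0 to 3 of the 9, with the lowest without P5 replicate 1 of batch B (518 and 0), 1019 genes without P5 replicate 3 of batch B, and 0 of the 9 also without P7 replicate 1. At P15 against P10, 668 genes were called, against 1007 with DESeq2 and 405 without the batch term; without 1 library it was 108 (P10 replicate 3) to 1473 (P10 replicate 2), and 0 to 2 of the 9. At P21 against P15, total counts called 1 of the 9 (Nlgn2, -0.14, adjusted p = 0.0204), against 0. At P28 against P21, 39 genes were called, against 64 with no filter, 165 with DESeq2, 19 with limma-voom, 11 without the batch term and 9 to 56 without 1 library (25 or fewer in 8 of these settings). The cause of these shifts was not tested. Of all calls, the share that was higher was 55.7% with trimmed means and 18% with total counts at P7 against P5, 50.1% and 37.6% at P10 against P5, 49.8% and 39.2% at P15 against P5, and 25.6% and 51.5% at P28 against P21. With the longest transcript as length, 27 of 42 family shares moved by over 1 SD, and the share of Lrrtm4 was 33.7% at P28 and 22.7% at P5.

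Pairing by replicate number was examined between different ages only. Deviations of same-numbered libraries of different ages correlated with r between -0.321 and 0.294 over 55 pairs (median -0.0168, with 13 pairs over 0.1). For libraries of different number the median was 0.0277, and 5 of 20 libraries correlated best with their own number. Same-numbered P5 libraries of batches A and B were not compared in this way. Whether they share an animal or lysate was therefore not tested. With the replicate block, 19 genes were called at P28 against P21 and 8 of the 9 genes over all ages (Lrrtm3 lost), and the other counts of the 9 were as in the fit without it. The number of libraries an age, 3 from P7 on, and the overlap of batch C with P21 and P28 limit these comparisons.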
